A study of Homo sapiens with 12 samples.

Results

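The 9 genes described here differed in level between the leukaemia lines MV4-11 and U937 on expression arrays with a scrambled hairpin. HMGN3, SDCBP and NAV3 were high in MV4-11, and HDGFL3, DEFB1, HS3ST2, LAMP5, DLK1 and CLEC5A were high in U937. They were chosen by the log2 difference between the scrambled-hairpin arrays of the lines, from among its extremes, so that difference is given as a description without a test. Probe sets annotated to exactly 1 of these genes were used, which gave 15 of the 22215 probe sets that are not controls. NAV3 had 3 probe sets, HDGFL3 had 5, and the other 7 genes had 1 each.

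The 12 arrays fall into 4 groups of 3, namely MV4-11 with CHD4 shRNA, MV4-11 with a scrambled shRNA, U937 with CHD4 shRNA, and U937 with a scrambled shRNA. All 4 groups carried a lentiviral H1-promoter hairpin vector that also expresses GFP, so no array came from cells without a vector. The hairpin's target is written CDH4 in the sample labels and CHD4 in the study's design text. MV4-11 is a myelomonocytic line whose MLL gene is fused and whose FLT3 receptor is mutationally active, and U937 is a monocytic line. Each is a single established line, so a difference between them is a difference between these cell lines and not between leukaemia subtypes. The design text calls the replicates biological triplicates, and the p-values measure the spread between these arrays.

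CHD4 is the ATPase of NuRD, a complex that slides nucleosomes and removes acetyl groups from histones, and it can keep genes silent in blood cells. The genes themselves do different jobs. HMGN3 binds nucleosomes and loosens chromatin, and HDGFL3 belongs to the hepatoma-derived growth factor family, whose PWWP domain binds chromatin. SDCBP is syntenin, a PDZ scaffold that holds the tails of syndecans and helps form exosomes, and NAV3 is a neuron navigator that binds growing microtubule ends. HS3ST2 adds a sulfate to heparan sulfate, LAMP5 is a lysosome-associated membrane protein of neurons and plasmacytoid dendritic cells, and DEFB1 is a secreted antimicrobial peptide of epithelia. DLK1 is an imprinted transmembrane protein with EGF-like repeats that is related to the Notch ligands, and CLEC5A is a C-type lectin receptor of monocytes and neutrophils.

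Promoters of 4 of the genes are shown because these genes led the difference between the lines (HMGN3 and HDGFL3) or changed with CHD4 shRNA (HS3ST2 and CLEC5A). Each is the RefSeq sequence from 250 bases before to 50 bases after the gene's start in GRCh38.p14, written along the gene's own strand. HMGN3 lies at chr6:79234633-79234932 on the minus strand, HDGFL3 at chr15:83207774-83208073 on the minus strand, HS3ST2 at chr16:22813912-22814211 on the plus strand and CLEC5A at chr7:141946925-141947224 on the minus strand. Capitals mark matches on either strand to the CCAAT box in HMGN3 and to the GC box, GGGCGG, in HDGFL3 and HS3ST2.
HMGN3 promoter: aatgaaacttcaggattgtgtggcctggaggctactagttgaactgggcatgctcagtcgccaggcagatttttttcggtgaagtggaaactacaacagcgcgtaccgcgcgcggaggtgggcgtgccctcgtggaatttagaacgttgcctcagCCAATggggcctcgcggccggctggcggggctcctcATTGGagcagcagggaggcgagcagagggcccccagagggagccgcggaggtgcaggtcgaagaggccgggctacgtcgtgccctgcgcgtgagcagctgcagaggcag
HDGFL3 promoter: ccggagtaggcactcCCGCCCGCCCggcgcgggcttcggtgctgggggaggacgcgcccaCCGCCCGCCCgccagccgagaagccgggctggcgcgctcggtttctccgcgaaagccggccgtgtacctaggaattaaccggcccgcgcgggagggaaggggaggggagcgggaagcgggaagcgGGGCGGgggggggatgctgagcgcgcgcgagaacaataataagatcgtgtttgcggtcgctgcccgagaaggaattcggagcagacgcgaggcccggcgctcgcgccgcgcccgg
HS3ST2 promoter: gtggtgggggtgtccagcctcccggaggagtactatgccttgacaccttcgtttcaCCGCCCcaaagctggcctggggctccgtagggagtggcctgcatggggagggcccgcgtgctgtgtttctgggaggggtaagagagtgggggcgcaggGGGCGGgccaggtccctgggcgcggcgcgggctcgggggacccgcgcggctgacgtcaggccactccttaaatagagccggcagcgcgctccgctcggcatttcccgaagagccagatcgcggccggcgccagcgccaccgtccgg
CLEC5A promoter: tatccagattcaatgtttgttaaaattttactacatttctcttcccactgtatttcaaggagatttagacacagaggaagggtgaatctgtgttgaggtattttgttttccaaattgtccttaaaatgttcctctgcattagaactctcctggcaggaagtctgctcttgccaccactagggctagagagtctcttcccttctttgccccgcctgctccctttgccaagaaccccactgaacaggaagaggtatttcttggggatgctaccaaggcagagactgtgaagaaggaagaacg

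The promoters differed in base composition. HDGFL3 had 73.3% G and C and 5 GC box matches, some of which overlap, and its ratio of observed to expected CpG of 1.19 was reached by 0.678% of the 35114 promoters of the table. HS3ST2 had 71.0% G and C with 2 GC boxes, and HMGN3 63.3% with 2 CCAAT boxes. CLEC5A had 44.3% G and C and a CpG ratio of 0.14, and held no match to any of the 7 motifs searched. The other motifs were the TATA box (TATAAA), the AP-1 site (TGACTCA), the PU.1 site (GAGGAAGT), the E-box (CACGTG) and the RUNX site (TGTGGT). Of all promoters, 34.6% held a CCAAT box, 45.0% a GC box, 11.5% a TATA box, 4.95% an AP-1 site, 2.59% a PU.1 site, 7.26% an E-box and 13.1% a RUNX site. LAMP5, with 1 CCAAT box, and NAV3, with a RUNX site at one start and a CCAAT box at the other, were scanned as well. A match is a description of the letters in this window only.

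Values are log2 RMA values, a scale on which 1 unit is a 2-fold difference in signal. CHD4 signal was lower with its shRNA on all 3 CHD4 probe sets, by 3.39-fold to 3.99-fold in MV4-11 and by 3.36-fold to 4.58-fold in U937 (limma, adjusted p at most 6e-05). The profiles of the lines lay close together. Single MV4-11 and U937 scrambled arrays correlated at 0.9853 to 0.9927 across the 22215 probe sets. Scrambled replicates within a line correlated at 0.9937 to 0.9971. For the CHD4 shRNA arrays the ranges were 0.9785 to 0.9911 between the lines and 0.9868 to 0.9969 within a line. Between the scrambled means, 72 probe sets differed by over 4-fold. Of these, 55 were higher in MV4-11 and 17 were higher in U937. The cause of this closeness was not tested, nor whether each array holds RNA of 1 line alone, and all levels, line differences and MV4-11 replicate spreads given here carry that limit. Of 10 listed myeloid markers 9 were measured, and their mean lay between 7.91 and 8.20 in MV4-11 CHD4 shRNA arrays, 7.65 and 7.78 in MV4-11 scrambled arrays, 8.04 and 8.06 in U937 CHD4 shRNA arrays, and 7.75 and 7.94 in U937 scrambled arrays. LYZ, CEBPA and PTPRC averaged above 10 in every group, SPI1, MPO and CSF1R between 5.20 and 7.24, and CD14 and FCGR1A lay in the dimmest 25% of probe sets. The integrin ITGAM averaged 6.09 in MV4-11 scrambled and 7.54 in U937 scrambled arrays. FLT3, the mutated receptor of MV4-11, averaged 10.05 and 9.99 in the MV4-11 CHD4 shRNA and scrambled arrays, and 6.79 and 6.64 in those of U937. MEIS1 was the other measured gene of a list of 4 for cells with a fused MLL gene. It averaged 11.66 and 11.43 in the MV4-11 CHD4 shRNA and scrambled arrays, and 11.54 and 10.85 in those of U937.

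Of the genes high in MV4-11, the chromatin protein HMGN3 showed the widest difference between the scrambled arrays. HMGN3 read 8.92, 9.53 and 8.64 in MV4-11 CHD4 shRNA arrays and 8.50, 9.67 and 9.35 in MV4-11 scrambled arrays. In U937 it read 3.97, 3.96 and 4.0 with CHD4 shRNA and 4.05, 4.27 and 3.43 with the scrambled hairpin. All 6 MV4-11 arrays therefore lay above all 6 U937 arrays, and the hairpin groups overlapped within each line. The MV4-11 scrambled mean was 9.17 ± 0.60 and the U937 scrambled mean 3.92 ± 0.44 (SD, n = 3 each), a log2 difference of 5.26 or 38.2-fold. Values near 4 lie in the dim part of the arrays, where background signal compresses folds.

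SDCBP, the syndecan scaffold, read 9.14, 10.51 and 9.58 in MV4-11 CHD4 shRNA arrays and 8.47, 10.43 and 9.81 in MV4-11 scrambled arrays. The U937 values were 4.72, 4.08 and 3.99 with CHD4 shRNA and 5.44, 4.43 and 4.71 with the scrambled hairpin. The lines again did not overlap, and the hairpin groups overlapped within each line. The scrambled arrays of MV4-11 spanned 3.89-fold, with replicate 1 lowest and replicate 2 highest. The scrambled means were 9.57 ± 1.00 in MV4-11 and 4.86 ± 0.52 in U937 (SD, n = 3 each), 26.2-fold apart.

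NAV3, the microtubule-binding navigator, had 1 bright probe set, 204823_at. It read 8.82, 10.38 and 8.51 in MV4-11 CHD4 shRNA arrays and 7.94, 9.50 and 8.44 in MV4-11 scrambled arrays. U937 arrays gave 4.35, 4.82 and 4.4 with CHD4 shRNA and 4.62, 4.29 and 4.44 with the scrambled hairpin. The scrambled means were 18.1-fold apart, and no MV4-11 array reached the U937 range. The other NAV3 probe sets did not separate the lines. Probe set 216466_at lay between 2.97 and 3.35 in MV4-11 and between 3.08 and 3.61 in U937, and 216632_at between 3.08 and 3.52 in MV4-11 and between 3.01 and 3.49 in U937. Both belong to the dimmest 25% of probe sets, and their scrambled line differences were -0.16 for 216466_at and 0.03 for 216632_at, so the mark of MV4-11 rests on 1 of the 3 NAV3 probe sets.

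**Figure D1:**
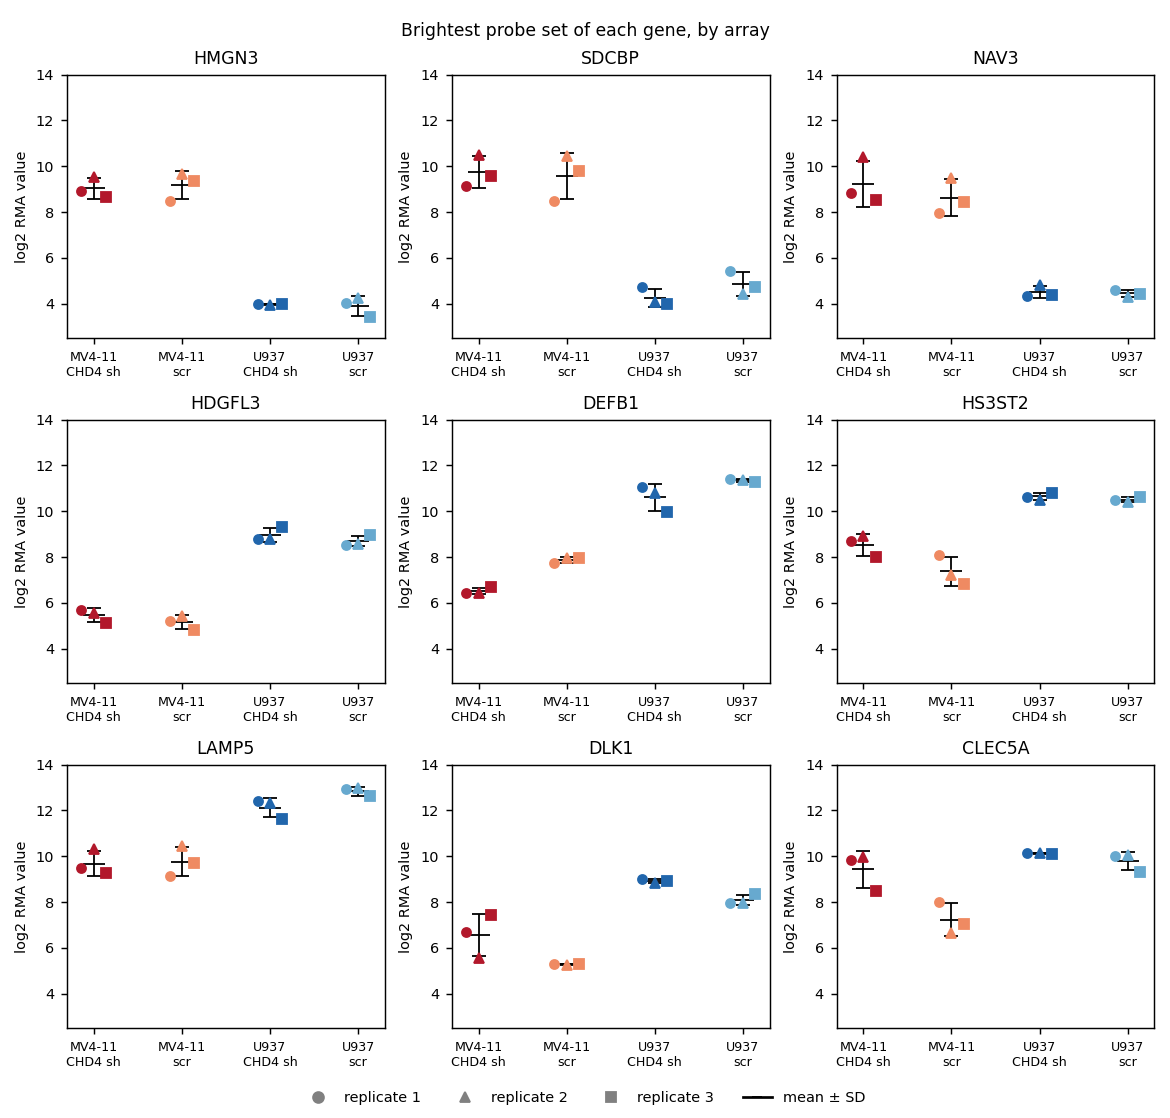
Log2 RMA value (y axis) of the brightest probe set of each gene in MV4-11 CHD4 shRNA, MV4-11 scrambled, U937 CHD4 shRNA and U937 scrambled arrays (x axis), with a symbol for each replicate number and the mean ± SD of 3 arrays in black. HMGN3, SDCBP and NAV3 lie at 7.94 or above in every MV4-11 array and at 5.44 or below in every U937 array, while CLEC5A reaches 9.97 in an MV4-11 CHD4 shRNA array against 9.33 in the lowest U937 scrambled array.

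Of the genes high in U937, the chromatin-binding HDGFL3 led. Its brightest probe set, 209524_at, read 5.71, 5.55 and 5.11 in MV4-11 CHD4 shRNA arrays and 5.21, 5.44 and 4.83 in MV4-11 scrambled arrays. In U937 it read 8.80, 8.79 and 9.30 with CHD4 shRNA and 8.53, 8.59 and 8.95 with the scrambled hairpin. The lines did not overlap, and the scrambled means were 11.6-fold apart. Probe sets 209526_s_at and 216693_x_at, the last of a type that can detect near-identical copies, followed the same split. Probe set 209526_s_at lay between 4.73 and 5.17 in MV4-11 and between 7.94 and 8.64 in U937, and 216693_x_at between 4.83 and 5.53 in MV4-11 and between 7.82 and 8.41 in U937. The remaining probe sets were in the dimmest 25% and separated the lines by less, with scrambled line differences of -1.51 for 209525_at and -0.40 for 221976_s_at. Probe set 209525_at read 4.34, 4.6 and 4.51 in MV4-11 CHD4 shRNA arrays and 4.32, 3.66 and 3.69 in MV4-11 scrambled arrays, and lay between 4.98 and 5.86 in U937. Probe set 221976_s_at lay between 3.42 and 3.77 in MV4-11 and between 3.80 and 4.22 in U937. Thus all 5 HDGFL3 probe sets were lower in every MV4-11 array than in any U937 array, on 221976_s_at only by 3.77 against 3.80. Of all probe sets, 14.1% were lower in MV4-11 without overlap in the scrambled arrays, which chose the gene, and 14.4% in the CHD4 shRNA arrays.

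**Figure D2:**
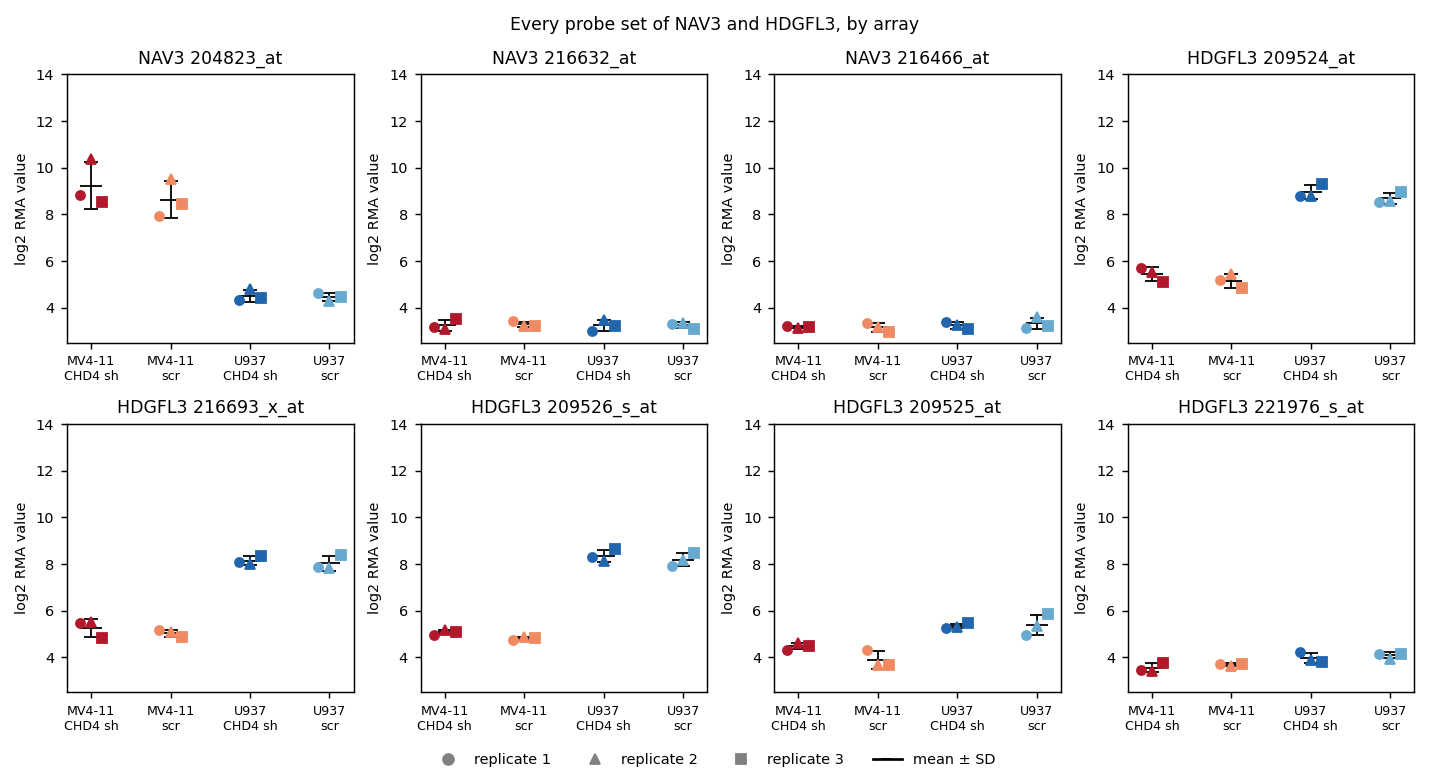
Log2 RMA value (y axis) of every NAV3 and HDGFL3 probe set in the 4 groups (x axis), with a symbol for each replicate number and the mean ± SD of 3 arrays in black. NAV3 is high in MV4-11 on 1 probe set and between 2.97 and 3.61 in all arrays on the other 2, while HDGFL3 is lower in MV4-11 on all 5.

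HS3ST2, the heparan sulfate sulfotransferase, read 8.71, 8.90 and 8.0 in MV4-11 CHD4 shRNA arrays and 8.09, 7.20 and 6.84 in MV4-11 scrambled arrays. The U937 values were 10.64, 10.49 and 10.80 with CHD4 shRNA and 10.48, 10.41 and 10.61 with the scrambled hairpin. U937 arrays lay between 10.41 and 10.80, whereas the MV4-11 arrays spread between 6.84 and 8.90 and overlapped between hairpins. The scrambled means were 8.71-fold apart. LAMP5, the lysosomal membrane protein, read 9.47, 10.31 and 9.26 in MV4-11 CHD4 shRNA arrays and 9.16, 10.43 and 9.72 in MV4-11 scrambled arrays. U937 arrays gave 12.43, 12.31 and 11.63 with CHD4 shRNA and 12.93, 12.98 and 12.62 with the scrambled hairpin, so the CHD4 shRNA arrays of U937 lay below all its scrambled arrays. The scrambled means of the lines were 8.42-fold apart.

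DEFB1, the antimicrobial peptide, read 6.42, 6.45 and 6.68 in MV4-11 CHD4 shRNA arrays and 7.74, 7.96 and 7.95 in MV4-11 scrambled arrays. In U937 it read 11.07, 10.80 and 9.96 with CHD4 shRNA and 11.40, 11.37 and 11.28 with the scrambled hairpin. The 4 groups were fully ordered without overlap, with MV4-11 CHD4 shRNA lowest, then MV4-11 scrambled, U937 CHD4 shRNA and U937 scrambled. DLK1, the Notch-ligand relative, read 6.69, 5.58 and 7.43 in MV4-11 CHD4 shRNA arrays and 5.31, 5.26 and 5.30 in MV4-11 scrambled arrays. The U937 values were 8.99, 8.84 and 8.91 with CHD4 shRNA and 7.97, 7.95 and 8.34 with the scrambled hairpin. Its groups were also ordered without overlap, with MV4-11 scrambled lowest, then MV4-11 CHD4 shRNA, U937 scrambled and U937 CHD4 shRNA. The scrambled means were 11.1-fold apart for DEFB1 and 6.95-fold apart for DLK1.

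CLEC5A, the monocyte lectin, read 9.82, 9.97 and 8.50 in MV4-11 CHD4 shRNA arrays and 8.02, 6.66 and 7.03 in MV4-11 scrambled arrays. U937 arrays gave 10.13, 10.14 and 10.11 with CHD4 shRNA and 10.00, 10.06 and 9.33 with the scrambled hairpin. The MV4-11 scrambled arrays lay below all others and the U937 CHD4 shRNA arrays above all others, while MV4-11 CHD4 shRNA and U937 scrambled arrays overlapped. The scrambled means were 5.90-fold apart. Among genes ranked by the scrambled line difference, each by its brightest probe set, the smallest differences of the genes described here were 4.18 for NAV3 and -2.56 for CLEC5A. HMGN3, SDCBP and NAV3 held ranks 1, 3 and 5 among genes higher in MV4-11, where the genes at ranks 2 and 4 are not described here, and the genes high in U937 held ranks 1 to 6. The next genes were CEBPD at 3.85, rank 6, and PPP2R2B at -2.46, rank 7. The arrays of the lines did not overlap on 13 of the 15 probe sets in the scrambled groups, 3 higher and 10 lower in MV4-11, against 10.9% and 14.1% of all probe sets, but this is the contrast that chose the genes.

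The CHD4 shRNA arrays were not used to choose the genes, and there the lines differed on 11 of the 15 probe sets, 3 higher and 8 lower in MV4-11 (limma, adjusted p under 0.05). Across all probe sets 5.55% passed in either direction, 3.21% higher and 2.34% lower in MV4-11. Counting each gene by its brightest probe set, 8 of the 9 passed. The arrays of the lines did not overlap on 13 of the 15, 3 higher and 10 lower in MV4-11, against 10.6% and 14.4% of all. These arrays come from the same lines that chose the genes, and same-numbered MV4-11 arrays share deviations. The fit also pools the spread of the scrambled arrays. The counts are therefore a description and no independent check of the choice. SDCBP was higher in MV4-11 by a log2 of 5.48 (SE 0.45, limma adjusted p = 2.74e-05), HMGN3 by 5.05 (SE 0.29, adjusted p = 1.14e-06) and NAV3 by 4.71 (SE 0.43, adjusted p = 6.2e-05). DEFB1 showed the widest difference in the other direction, with means of 6.52 ± 0.14 in MV4-11 and 10.61 ± 0.58 in U937 (SD, n = 3 each), a log2 difference of -4.09 (SE 0.21, limma adjusted p = 7.02e-07). The antimicrobial gene was thus 17.1-fold lower in MV4-11 with CHD4 shRNA.

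The HDGFL3 difference was -3.51 (SE 0.20, limma adjusted p = 1.14e-06) on its brightest probe set, and -3.28, -2.88 and -0.86 on 3 others that passed. Probe set 221976_s_at, at -0.42, did not pass (limma adjusted p = 0.076), though its arrays did not overlap. LAMP5 differed by -2.44 (SE 0.32), DLK1 by -2.35 (SE 0.32) and HS3ST2 by -2.11 (SE 0.27), with limma adjusted p-values of 0.00106, 0.00128 and 0.00101. CLEC5A was the gene that did not pass. Its means with CHD4 shRNA were 9.43 ± 0.81 in MV4-11 and 10.13 ± 0.02 in U937 (SD, n = 3 each), a difference of -0.70 (SE 0.38, limma adjusted p = 0.28), although no MV4-11 array reached the U937 values. A p that misses the threshold does not show that the lines were equal.

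**Figure D3:**
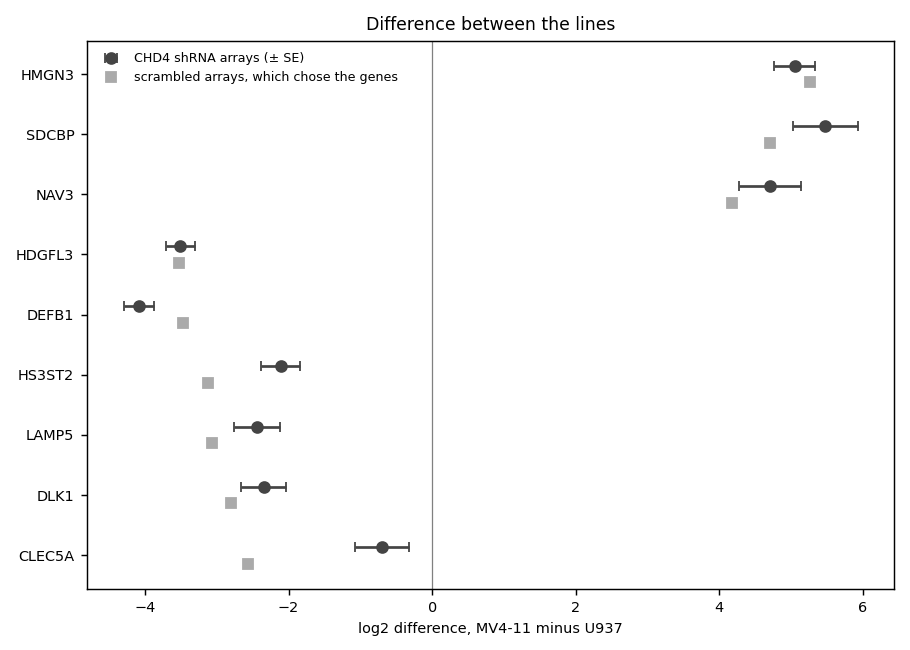
Log2 difference between MV4-11 and U937 (x axis) for the brightest probe set of each gene (y axis) in the CHD4 shRNA arrays (circles, ± SE) and in the scrambled arrays that chose the genes (squares). HMGN3, SDCBP and NAV3 lie at 4.18 or above in both, and CLEC5A lies at -0.70 with CHD4 shRNA and -2.56 with the scrambled hairpin.

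The genes varied more between MV4-11 replicates than most probe sets did. The SD over 3 arrays exceeded 0.5 on 5 of the 15 probe sets in MV4-11 CHD4 shRNA and on 6 of 15 in MV4-11 scrambled arrays, against 3.34% and 1.08% of all probe sets. In U937 it exceeded 0.5 on 1 of 15 in each group, against 0.963% with CHD4 shRNA and 0.288% with the scrambled hairpin. By the mean SD of both MV4-11 groups NAV3 and SDCBP had the widest spread, at 0.90 and 0.85, with SDs of 1.00 and 0.70 in CHD4 shRNA arrays and 0.80 and 1.00 in scrambled arrays. DEFB1 stood at the other end, with SDs of 0.14 and 0.12. In the CHD4 shRNA arrays alone, DLK1 (0.93, spanning 3.61-fold) and CLEC5A (0.81) exceeded SDCBP, and DLK1 had an SD of 0.03 in the scrambled arrays.

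The spread had a shared pattern. HMGN3, SDCBP, NAV3 and LAMP5 were each highest in replicate 2 of both MV4-11 groups, and in the scrambled group all 4 had replicate 3 in the middle and replicate 1 lowest. Replicate 2 was the highest for 6 of the 9 genes in each MV4-11 group, against 33.2% of all probe sets with CHD4 shRNA and 28.6% with the scrambled hairpin. LAMP5 is high in U937, so the shared pattern was not limited to genes high in MV4-11. Over the 6 MV4-11 arrays, the deviations from the group mean correlated at 0.98 between NAV3 and LAMP5, 0.96 between HMGN3 and LAMP5 and 0.93 between HMGN3 and SDCBP. The deviations of DEFB1 ran opposite to those of CLEC5A (-0.98) and HS3ST2 (-0.93), while HS3ST2 and CLEC5A ran together (0.90). Those of DEFB1 were small, with SDs of 0.14 and 0.12 with CHD4 shRNA and scrambled hairpin, against medians of 0.14 and 0.13 over all probe sets. The pairs named are among the strongest correlations of all pairs of the 9 genes. These correlations describe 6 arrays that carry 4 degrees of freedom and share the same RNA extracts between genes.

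The 55 probe sets over 4-fold higher in MV4-11, 3 of which belong to HMGN3, SDCBP and NAV3, moved between the replicates in the same way. Their median deviation was -0.21, 0.62 and -0.39 in CHD4 shRNA replicates 1, 2 and 3, and -0.73, 0.62 and 0.11 in scrambled replicates 1, 2 and 3. In replicate 2, 52 of the 55 lay above their group mean in each MV4-11 group. The 17 probe sets over 4-fold higher in U937, 8 of which belong to the genes described here, deviated by a median between -0.27 and 0.26. Over all probe sets the median deviation was between -0.01 and 0.01 in every MV4-11 array. What differed between the MV4-11 replicates was not tested.

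**Figure D4:**
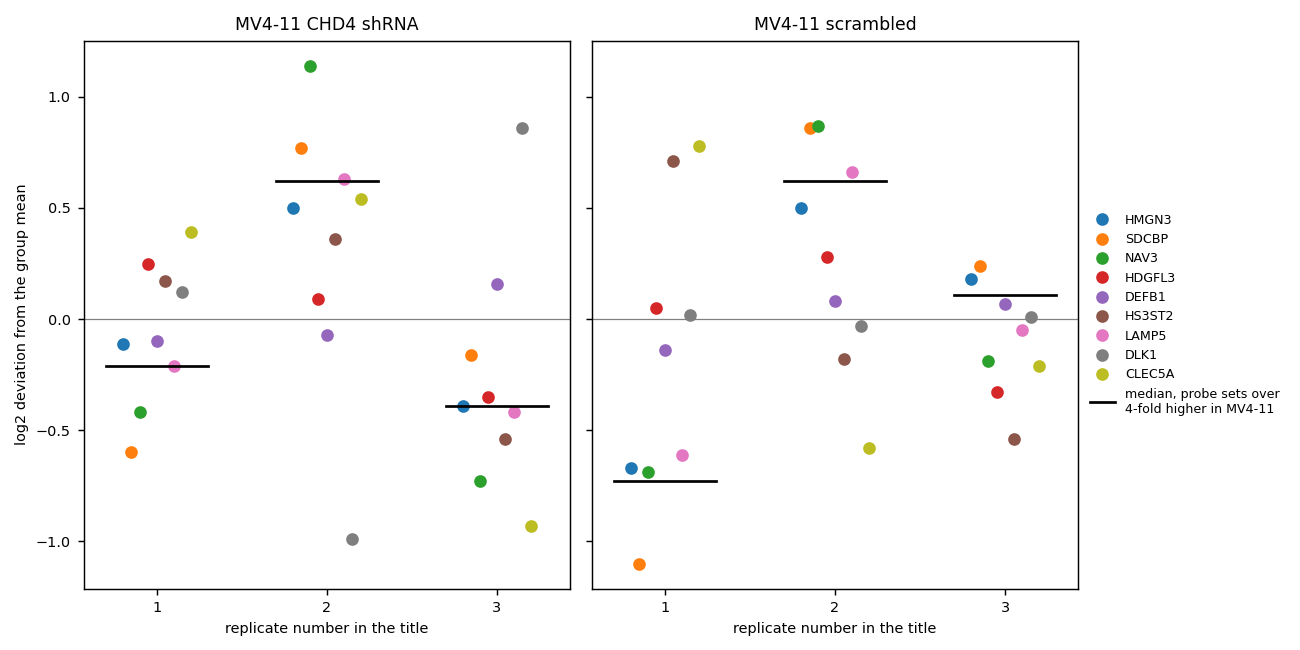
Deviation of each MV4-11 array from its group mean on the log2 scale (y axis) by the replicate number in the title (x axis) for the brightest probe set of the 9 genes, with CHD4 shRNA on the left and scrambled on the right. Black bars give the median of the 55 probe sets over 4-fold higher in MV4-11 scrambled arrays, which is 0.62 in replicate 2 of both groups, and HMGN3, SDCBP, NAV3 and LAMP5 lie above 0 there.

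The design text asks what CHD4 depletion does to the transcriptome. In MV4-11, CLEC5A, DLK1 and HS3ST2, which are lower in that line than in U937, rose with CHD4 shRNA, and DEFB1, also lower there, fell. These were 4 of the 15 probe sets (3 higher, 1 lower; limma, adjusted p under 0.05), against 7.47% of all probe sets, 3.88% higher and 3.59% lower. The median change over the 15 was 0.24, against -0.03 over all probe sets. On 5 of the 15 the CHD4 shRNA and scrambled arrays did not overlap, against 23.8% of all. The scrambled arrays entered both the choice of the genes and this comparison, so a chance low MV4-11 value there would raise the change of a gene chosen as low in MV4-11. In the same way, a chance high U937 value would lower the U937 change of a gene chosen as high in U937, such as DEFB1 or LAMP5, and both would raise the difference between the lines' changes, MV4-11 minus U937, of such a gene. Of the 9 myeloid markers ITGAM also rose in MV4-11, by 1.41 (SE 0.21, limma adjusted p = 0.00212), and none passed in U937. CD2, 1 of 5 T cell markers, rose by 1.77 in MV4-11 and 1.40 in U937, and CD79B, 1 of 3 measured B cell markers, by 1.34 and 0.60 (limma adjusted p at most 0.0404). The part of these markers in the results was not tested.

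CLEC5A averaged 9.43 ± 0.81 in MV4-11 CHD4 shRNA arrays and 7.24 ± 0.70 in MV4-11 scrambled arrays (SD, n = 3 each). It rose by a log2 of 2.19 (SE 0.38), which is 4.57-fold (limma adjusted p = 0.00483), and every CHD4 shRNA array lay above every scrambled one. DEFB1 averaged 6.52 ± 0.14 with CHD4 shRNA and 7.88 ± 0.12 with the scrambled hairpin (SD, n = 3 each), and fell by 1.37 (SE 0.21, limma adjusted p = 0.00288), which is 2.58-fold. CLEC5A and DEFB1 passed the threshold under each of the 22 alternative fits tried. All of these fits keep scrambled arrays that chose the genes, so they do not address that choice. Those that leave out only a U937 array leave the MV4-11 difference itself unchanged.

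DLK1 averaged 6.57 ± 0.93 with CHD4 shRNA and 5.29 ± 0.03 with the scrambled hairpin (SD, n = 3 each) and rose by 1.28 (SE 0.32, limma adjusted p = 0.0294), which is 2.42-fold. All 3 CHD4 shRNA arrays were above the scrambled range, which ended at 5.31, but replicate 2 was close to it at 5.58 and replicate 3 was highest at 7.43. The change was 1.77 without CHD4 shRNA replicate 2 and 0.84 without CHD4 shRNA replicate 3. The DLK1 call was lost without CHD4 shRNA replicate 1 (limma adjusted p = 0.111) or without scrambled replicate 1, 2 or 3 (0.0688, 0.0807 and 0.0841). It was also lost when only the MV4-11 arrays were fitted (0.134). HS3ST2 averaged 8.54 ± 0.47 with CHD4 shRNA and 7.38 ± 0.64 with the scrambled hairpin (SD, n = 3 each) and rose by 1.16 (SE 0.27, limma adjusted p = 0.0231), which is 2.23-fold, although scrambled replicate 1 at 8.09 exceeded CHD4 shRNA replicate 3 at 8.0. Its call was lost without CHD4 shRNA replicate 1 or 2 (limma adjusted p = 0.0994 and 0.0853), without scrambled replicate 2 or 3 (0.0807 and 0.0938), and with only the MV4-11 arrays (0.119).

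The genes high in MV4-11 did not pass. The changes there were -0.14 for HMGN3, 0.17 for SDCBP and 0.61 for NAV3, the last with SE 0.43 (limma adjusted p = 0.458). When same-numbered arrays were blocked within each line, the NAV3 SE was 0.18 and its adjusted p 0.0514 (limma), just short of the threshold. HMGN3 and SDCBP were at 0.706 and 0.511 in that fit. Of the remaining genes high in U937, the brightest HDGFL3 probe set changed by 0.30 and LAMP5 by -0.09. Probe set 209525_at of HDGFL3 changed by 0.59 without overlap between the groups, and did not pass (limma adjusted p = 0.104). In the blocked fit it was at 0.0524, the brightest HDGFL3 probe set at 0.0561 and LAMP5 at 0.733 (limma adjusted p).

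In U937, none of the 15 probe sets passed with CHD4 shRNA (0 of 15, limma, against 4.51% of all probe sets), and 3 had an unadjusted p under 0.05, against 17.0% of all. The groups did not overlap on 4 of the 15, against 24.2% of all, and these were the probe sets of DEFB1, LAMP5, DLK1 and CLEC5A. DEFB1 averaged 10.61 ± 0.58 with CHD4 shRNA and 11.35 ± 0.06 with the scrambled hairpin (SD, n = 3 each), a change of -0.74 (SE 0.21, limma adjusted p = 0.0688). DLK1 averaged 8.91 ± 0.08 with CHD4 shRNA and 8.09 ± 0.22 with the scrambled hairpin (SD, n = 3 each), a change of 0.83 (SE 0.32, limma adjusted p = 0.186). That SE pools the wide spread of DLK1 in MV4-11 CHD4 shRNA arrays, and with only the U937 arrays the call was made (limma adjusted p = 0.00793), as it was without MV4-11 CHD4 shRNA replicate 2 or 3 (0.0109 and 0.0391). The DEFB1 call was made without U937 CHD4 shRNA replicate 1, at a change of -0.97 (limma adjusted p = 0.017). LAMP5 changed by -0.72 (SE 0.32), SDCBP by -0.60 (SE 0.45) and CLEC5A by 0.33 (SE 0.38), none past the threshold.

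The changes did not differ between the lines past the threshold for any of the 15 probe sets (0 of 15, limma), nor for any of the 22215 probe sets. At an unadjusted p under 0.05 there were 3 of 15, against 4.41% of all. The scrambled line difference that chose the genes enters this contrast, and the choice favours positive values in genes high in U937. The 3 were positive and belong to such genes, so the count and their unadjusted p-values are a description only. CLEC5A had the widest difference, 2.19 in MV4-11 against 0.33 in U937, a difference of 1.86 (SE 0.53, limma unadjusted p = 0.00395, adjusted p = 0.944). HS3ST2 changed by 1.16 in MV4-11 and by 0.14 in U937, a difference of 1.02 (SE 0.39, limma unadjusted p = 0.0212). HDGFL3 probe set 209525_at differed by 0.65 (limma unadjusted p = 0.046). For CLEC5A, HS3ST2, DEFB1 and DLK1 the changes had the same sign in both lines. Since no difference passed, the rise of CLEC5A was not shown to be particular to MV4-11.

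**Figure D5:**
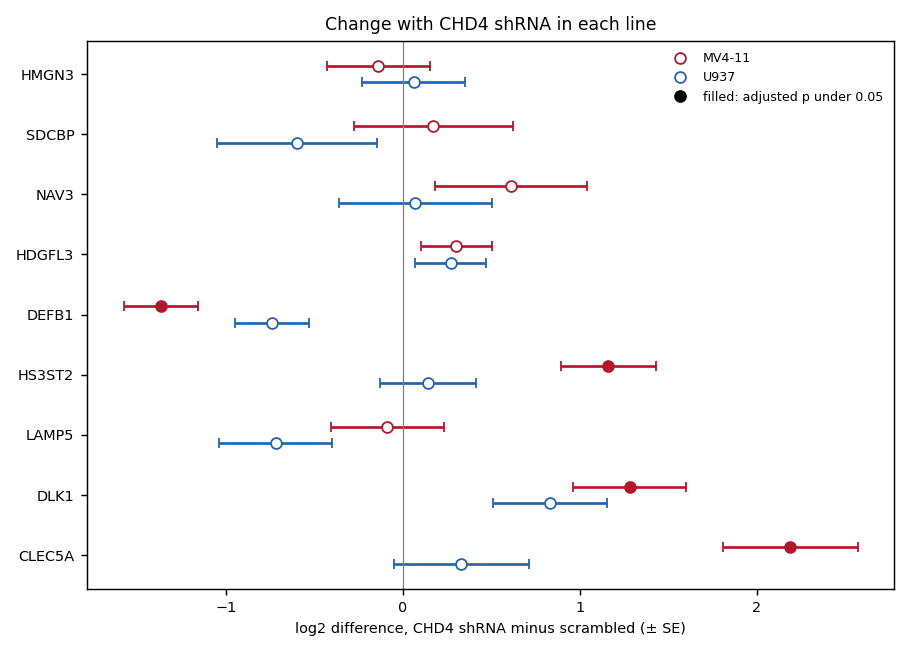
Log2 change with CHD4 shRNA (x axis, ± SE) in MV4-11 (red) and U937 (blue) for the brightest probe set of each gene (y axis), filled where the limma adjusted p was under 0.05. In MV4-11 CLEC5A lies at 2.19, DLK1 at 1.28, HS3ST2 at 1.16 and DEFB1 at -1.37, and no U937 point is filled.

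Relatives of the 9 genes were followed through 9 family lists with 74 listed genes, of which 54 were measured. In MV4-11, 5 rose and 4 fell with CHD4 shRNA, and in U937, 2 rose and 2 fell (limma, adjusted p under 0.05, each gene by its brightest probe set). Among the brightest probe sets of all 11963 genes, 8.75% passed in MV4-11 (4.39% higher, 4.36% lower) and 5.53% in U937 (2.29% higher, 3.23% lower). The defensin DEFA4, a neutrophil granule peptide, rose by 1.26 in MV4-11 and by 1.20 in U937 (SE 0.22 each, limma adjusted p = 0.00547 and 0.00902), opposite in sign to DEFB1. The other 3 measured defensins did not pass. NAV2, the navigator related to NAV3, fell by 0.91 in MV4-11 and by 0.69 in U937 (SE 0.16 each, limma adjusted p = 0.00512 and 0.0271), while NAV3 did not pass in either line. The NAV2 call in U937 was lost under 6 of 21 alternatives, among them leaving out CHD4 shRNA replicate 2 or 3 (limma adjusted p = 0.126 and 0.0751) or scrambled replicate 1, 2 or 3 (0.0732, 0.0654 and 0.11). In MV4-11 it was lost under 1 of 22, without replicate 1 of both groups (0.0579). Among 16 measured heparan sulfate enzymes, the exostosin-like EXTL2 fell by 0.87 in MV4-11 and by 1.12 in U937, and the epimerase GLCE rose by 0.43 in MV4-11, a call lost under 10 of 22 alternatives.

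Among 12 measured lectins and adaptors, CD209 rose by 0.78 in MV4-11 and by 0.73 in U937 (SE 0.12 each, limma adjusted p = 0.0029 and 0.00504), but its other probe set, at -0.15 and 0.03, did not pass in either line. Of 8 measured Notch pathway genes, the ligand JAG1 fell by 0.70 and the receptor NOTCH2 by 0.49, and the receptor NOTCH4 rose by 0.41, all in MV4-11 (limma adjusted p = 0.0393, 0.0401 and 0.046). These calls were lost under 11, 14 and 13 of 22 alternatives. Other JAG1 probe sets changed by -0.91, which passed, and by -0.45 and -0.08, which did not. Other NOTCH2 probe sets, between -0.42 and -0.49, did not pass. In the HMGN family of 4, HMGN2 rose by 0.35 in MV4-11, on a probe set of the x_at type that can detect near-identical copies, and its call was lost under 14 of 22 alternatives. No syndecan, HDGF family or LAMP family gene passed in either line, with 4, 2 and 3 measured. In the CHD4 shRNA arrays only CLEC11A, a secreted lectin growth factor, was higher in MV4-11 than U937, by 1.02, among the 54 relatives. Only DEFA6 was lower, at -1.14. Of all probe sets, 3.21% were higher and 2.34% lower there (limma, adjusted p under 0.05), so 1 of 54 each way did not exceed the general share.

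Over the 12 arrays, the genes whose log2 values followed each gene most closely were found by Pearson's r among the brightest probe sets of all genes. The arrays fall into separate lines, so each r mostly reflects the line difference and is given as a description. FLT3 was among the nearest to all 3 genes high in MV4-11, at 0.994 for NAV3, 0.992 for HMGN3 and 0.985 for SDCBP. FLT3 read 9.86, 10.73 and 9.55 in MV4-11 CHD4 shRNA arrays and 9.33, 10.72 and 9.92 in MV4-11 scrambled arrays, again highest in replicate 2. The other nearest genes were NRIP1 for HMGN3 (0.992), LXN for SDCBP (0.986) and CEP15 for NAV3 (0.989).

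For the genes high in U937, HDGFL3 was followed by PCOLCE2 (0.989) and PPP2R2B (0.988), DEFB1 by CIB1 (0.983) and ADA2 (0.981), and LAMP5 by RMDN3 (0.983) and CACNA2D3 (0.976). HS3ST2 was followed by MFAP1 (0.971) and SPOCK1 (0.970), DLK1 by WFDC1 (0.971) and PPT1 (0.966), and CLEC5A by SMYD2 (0.972) and FARP1 (0.953). Within MV4-11, the deviations from the group means over 6 arrays were followed most closely by SAV1 and RPN1 for SDCBP (0.997 each), by C11orf58 (1.0) and TM7SF2 (0.999) for NAV3, and by CAMSAP2 (0.997) and GATA3 (0.996) for CLEC5A, the 3 genes with the widest spread there. These are the highest of 11963 genes over few arrays, and are given as a description. The deviations of LAMP5 were nearest to those of FLT3 (0.999 over 6 arrays).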

How the data were processed

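Total RNA of 12 cell-line samples was labelled and hybridised to Affymetrix arrays, per the labels' protocols. The authors' deposited table holds log2 values to 2 decimals. The submitters' processing notes name RMA. Its version, and whether 1 run covered all arrays, is not given in the sources used here. RMA equalises the arrays by quantiles, which hides a shift common to most genes. No detection calls were used. Levels of different probe sets served to pick the brightest one of a gene, to name dim ones and to describe the markers. They were not tested against each other. The table held 22277 probe sets. After removal of 62 controls, 19064 carried 1 gene symbol, 1043 carried several, and 2108 were absent from the annotation. Entrez identifiers of 19052 were found in the RefSeq table. Array medians lay between 6.96 and 7.01. The number of arrays limits the precision.

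One linear model with 4 groups was fitted to 22215 probe sets with limma 3.58.1 in R 4.3.3 (lmFit, eBayes without trend, 8 residual and 4.86 prior degrees of freedom), with Benjamini-Hochberg adjustment over all of them and a threshold of 0.05. A gene was represented by its brightest probe set (11963 genes). The fit was tested on simulated data. Genes, family lists and tests were chosen with earlier results of these data known. All 15 probe sets of the 9 genes were reported, the 2 nearest genes by r over 12 arrays were named for each gene, likewise by deviations over the 6 MV4-11 arrays for the 3 genes with the widest spread there, and the list genes past the threshold were named. FLT3 as nearest to LAMP5 within MV4-11 was named after its values were seen. Y-linked genes were left out of the ranking by r.

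Replicate numbers 1 to 3 come from the titles. Deviations of same-numbered CHD4 shRNA and scrambled arrays correlated at 0.43, 0.47 and 0.49 in MV4-11 and at 0.01, 0.34 and 0.36 in U937, so the numbers met the pairing criterion, over 0.1 in every pair, in MV4-11 alone. The model has no replicate term, and a replicate block within both lines was an alternative. What a number marks is not given in the labels. Other alternatives were a block shared by both lines, only the arrays compared, leaving out the dimmest 25% of probe sets, quantile normalization, median centring, trend and robust fitting, 1 probe set per gene, a threshold of 0.01 and leaving out each array. Leaving out replicate 1 of both MV4-11 groups was added after seeing the data.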

Additional observations from a re-analysis of the deposited data

How the results depend on the processing

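The count of the 15 probe sets past the threshold in MV4-11 with CHD4 shRNA was 4, and became 2 with only the compared arrays, 2 at an adjusted p under 0.01, and 2 to 4 when 1 array was left out. In U937 the count of 0 became 1 with only the compared arrays (DLK1) and 0 to 1 when 1 array was left out. With the replicate block within each line it was 3 in U937 (SDCBP, DEFB1 and LAMP5), where the numbers were not shown to pair the arrays, and 4 in MV4-11, where the block changed no call of the 9 genes. The difference between the lines' changes stayed at 0, and the count of 11 in the CHD4 shRNA arrays ranged from 10 to 12 when 1 array was left out. Over all probe sets the MV4-11 count of 1659 became 3700 with the block within each line, 718 with only the compared arrays and 514 at 0.01, and the U937 count of 1002 became 2151 with the block and 334 at 0.01. The CHD4 shRNA line count of 1232 became 452 with only the compared arrays, 342 at 0.01 and 771 with 1 probe set per gene. Leaving out 1 array gave 546 to 3143 in MV4-11, 396 to 1210 in U937 and 424 to 1788 for the lines, and leaving out replicate 1 of both MV4-11 groups gave 238 in MV4-11 and 633 for the lines.

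Small changes turned sign when 1 array was left out. In MV4-11 they ranged from -0.48 to 0.11 for HMGN3, -0.38 to 0.60 for SDCBP and -0.41 to 0.24 for LAMP5, and in U937 from -0.18 to 0.24 for HMGN3 and -0.07 to 0.16 for NAV3. The difference between the lines' changes ranged from -0.54 to 0.05 for HMGN3, -0.04 to 0.97 for NAV3 and -0.14 to 0.20 for HDGFL3. Without replicate 1 of both MV4-11 groups, SDCBP changed by -0.08 in MV4-11, the HDGFL3 difference was -0.08, and DLK1 lost its call (limma adjusted p = 0.201). None of these sign changes crossed the threshold, and their cause was not tested. Of the family genes, HMGN2, NOTCH2 and NOTCH4 lost their call under 13 or 14 of 22 alternatives, JAG1 under 11, GLCE under 10, and NAV2 under 6 of 21 in U937. In MV4-11 NAV2, DEFA4 and EXTL2 lost it without replicate 1 of both groups alone (limma adjusted p = 0.0579, 0.0548 and 0.092). The call of CD209 held under each alternative in both lines. Spreads of 3 arrays a group, and dim U937 values of HMGN3, SDCBP and NAV3, limit the folds.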
